A study of Mus musculus with 10 samples.

Results

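Follistatin (Fst), its relative follistatin-like 1 (Fstl1), the activin subunits Inhba and Inhbb, the activin and BMP type II receptors Acvr2a, Acvr2b and Bmpr2, and the type I receptors Acvr1, Bmpr1a and Bmpr1b were followed in mouse dorsal root ganglia (DRG). The 10 genes were chosen by name from the 55414 genes in the count files, and Fst was chosen by its level, which was higher in WD1 cKO than in Control in these same libraries. The difference of Fst is therefore a description: where it stood against the thresholds is told as part of that description and supports nothing. The other 9 genes were compared in the fit of all genes.

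Bulk RNA sequencing was made from DRG of mouse embryos at E18.5, shortly before birth, with 5 Control and 5 WD1 cKO libraries, to ask which transcripts differ when the transcription factor Dach1 is lost early in the sensory lineage. Control embryos, littermates of the mutants, carried Dach1 flox/flox alleles and no Cre. WD1 cKO embryos were Wnt1 Cre/+; Dach1 flox/flox, so that Cre acted in the neural crest, from which the neurons and glia of the DRG derive, and not in the vessels, connective tissue or blood cells of other origin that DRG tissue also holds. The libraries held 20465132 to 27528784 counts in Control and 19757596 to 34796562 counts in WD1 cKO. The genotype entry and the title of each sample contradict each other, since the entries are exchanged between the groups, and the titles were followed.

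Dach1 itself was read first as a check of the labels. Its level in the Control libraries 1 to 5 was 35.1, 38.5, 41.6, 37.1 and 37.4 counts per 1000000 counts of the library (CPM), and in the WD1 cKO libraries 19.1, 20.7, 19.5, 20.3 and 20.4 CPM. Each library titled WD1 cKO lay below each library titled Control. The means were 37.9 ± 2.40 and 20.02 ± 0.677 CPM (SD, n = 5 each), a log2 fold change of -0.92 with a standard error (SE) of 0.050. In whole ganglia a transcript can be lower because fewer cells of a type are present or because each cell holds less RNA. These counts alone cannot tell the 2 apart, for Dach1 or for any gene below. For Dach1 the study also stained sections. It reported the protein extinguished in WD1 cKO by E18.5, with no difference in the number of Islet1-positive neurons. The floxed allele loses 1 exon, while the counts are of the whole gene, so reads of other exons can remain. Their share was not tested.

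Activins and BMPs are secreted dimers of the TGF-beta family that bring type II and type I receptor kinases together on the cell surface, after which the type I kinase phosphorylates SMAD proteins that act on genes in the nucleus. Follistatin is a secreted glycoprotein that wraps around activin, and with lower affinity around some BMPs, and keeps them from their receptors. In sensory ganglia, activins and BMPs from target tissues are known to induce the peptide CGRP, the product of Calca, in developing neurons.

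Fst, the antagonist that was selected on its difference, had levels of 14.5, 16.5, 14.1, 17.5 and 18.9 CPM in the Control libraries 1 to 5 and of 23.7, 22.3, 22.4, 27.9 and 23.4 CPM in the WD1 cKO libraries 1 to 5. The groups did not overlap: the lowest WD1 cKO library, replicate 2, stood above the highest Control library, replicate 5. The means were 16.3 ± 2.01 CPM in Control and 23.9 ± 2.30 CPM in WD1 cKO (SD, n = 5 each), a ratio of 1.47 and a log2 fold change of 0.55. Fst (ENSMUSG00000021765, chromosome 13) rested on 297 to 811 counts per library. The study, which used DESeq2, drew a cut-off at an unadjusted p under 0.005 with a log2 fold change beyond 0.15 in either direction. Here the cut-off was applied to edgeR's test, so the counts are not those of the study. With DESeq2 here 44 genes were higher past it. With edgeR Fst was 1 of 36 genes higher in WD1 cKO among the 17490 tested, a background of 0.206%. It held place 11 of these 36 by size of difference, and their median log2 fold change was 0.33. With edgeR it was not among the 7 genes (0.0400%) with an adjusted p under 0.05, while with DESeq2 it was among 19 such genes (0.109%). With edgeR it was also under 0.05 when no filter on low counts was used, and when the replicate number was added as a block. Neither side of that threshold supports anything for Fst, since it was selected on this difference. A gap between the groups with WD1 cKO above was seen for 87 genes, 0.497% of those tested, and Fst was the only 1 of the 10 genes among them. Nothing is read from these counts, because Fst was picked with them known.

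**Figure D1:**
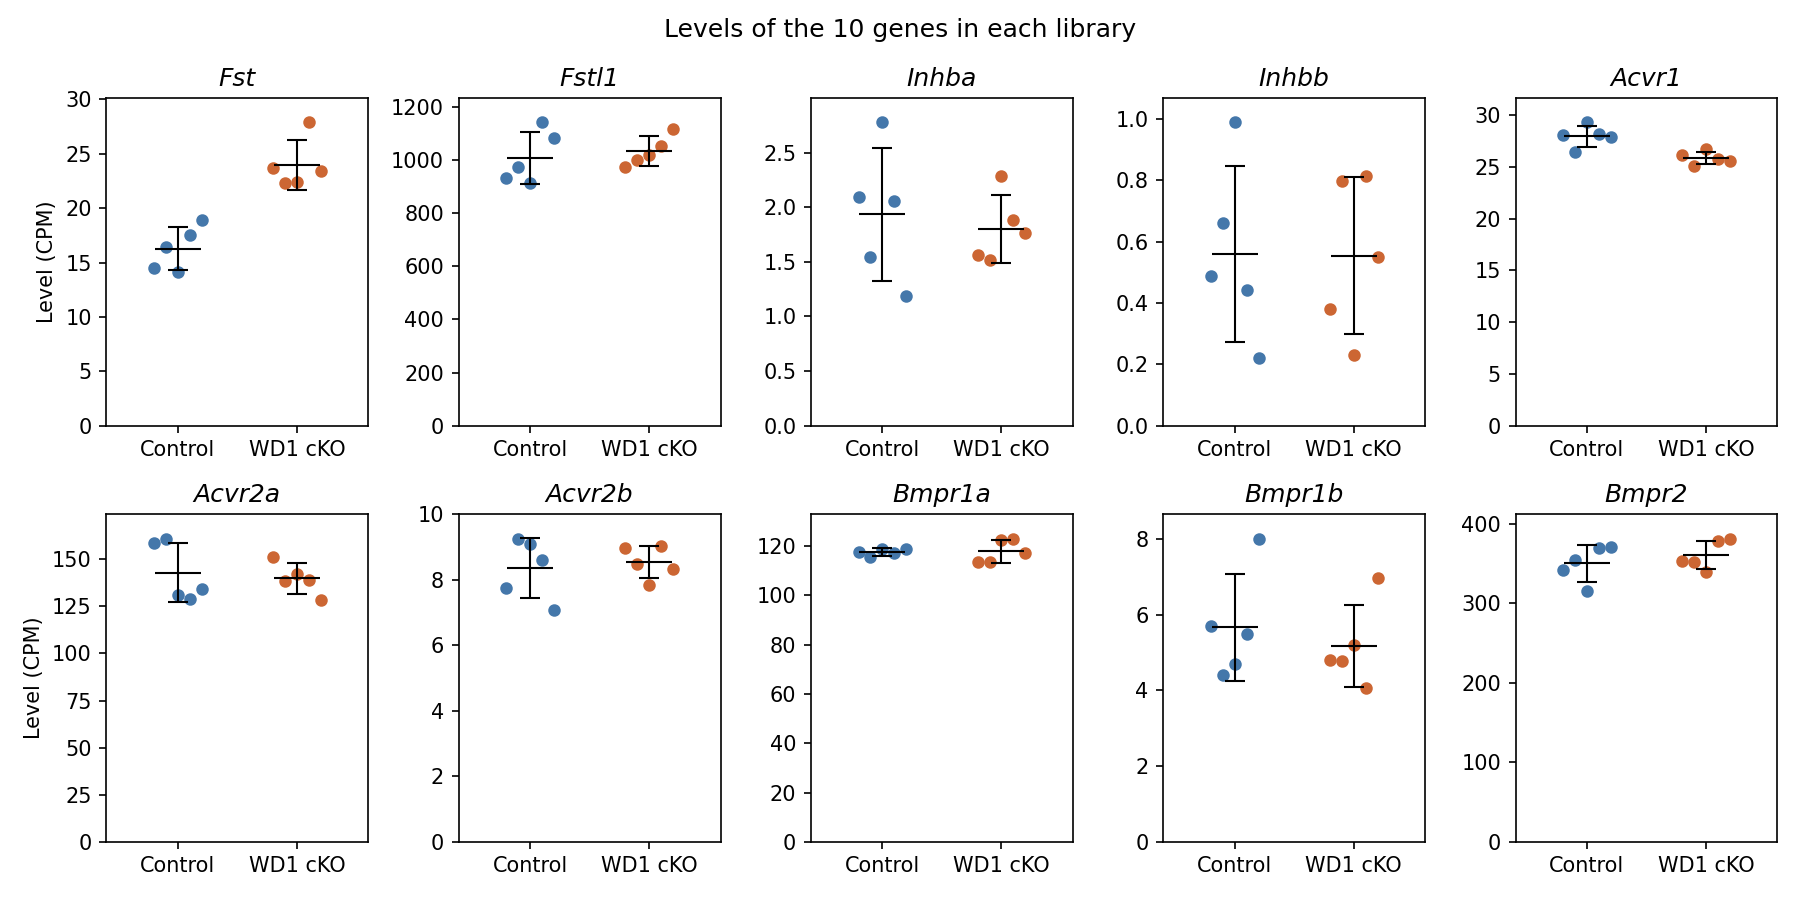
Level of each of the 10 genes in CPM (vertical axes, each from 0) in the 5 Control and 5 WD1 cKO libraries; each point is a library, the horizontal line is the mean and the bar is 1 SD. For Fst the WD1 cKO points, from 22.3 to 27.9 CPM, lie above the Control points, from 14.1 to 18.9 CPM, and for the other 9 genes the groups overlap.

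Fstl1 encodes a secreted protein with a follistatin-type domain that is known from the terminals of sensory neurons, where it activates the sodium-potassium pump and dampens transmission. Its level was 934, 974, 916, 1143 and 1082 CPM in the Control libraries 1 to 5 and 973, 1002, 1021, 1054 and 1118 CPM in the WD1 cKO libraries. The WD1 cKO values lay inside the Control range, with Control replicates 4 and 5 and WD1 cKO replicate 5 at the high end. The log2 fold change was 0.034 (SE 0.064, 95% interval -0.11 to 0.17). Within each group Fstl1 was highest in the libraries numbered 4 and 5. The ratio of Fstl1 to Fst per length was 58.1 ± 3.44 in Control and 40.6 ± 3.71 in WD1 cKO (SD, n = 5 each), a gap that holds the difference of Fst again and is not a separate result.

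The ligand subunit genes were close to the floor of the data. Inhba, whose product pairs with itself to form activin A, had levels of 2.10, 1.54, 2.78, 2.06 and 1.19 CPM in Control and 1.56, 1.52, 2.29, 1.88 and 1.76 CPM in WD1 cKO, on 27 to 69 counts per library. Control held both the highest library, replicate 3, and the lowest, replicate 5. Inhbb, the subunit of activin B, had levels of 0.488, 0.662, 0.989, 0.442 and 0.220 CPM in Control and 0.379, 0.798, 0.232, 0.813 and 0.548 CPM in WD1 cKO, on 5 to 21 counts. Low and high libraries of Inhbb were present in both groups. The log2 fold changes were -0.097 for Inhba (SE 0.21, 95% interval -0.56 to 0.36) and -0.032 for Inhbb (SE 0.40, -0.90 to 0.84). For Inhbb the interval runs from 0.536 to 1.79 times the Control level, and a difference within it was not detectable in these libraries.

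Acvr2a, Acvr2b and Bmpr2 encode the type II receptors, which bind the ligand dimer and activate the type I kinase. Acvr2a was at 159, 161, 131, 129 and 134 CPM in the Control libraries and 151, 139, 142, 139 and 129 CPM in the WD1 cKO libraries. The Control libraries fell into a higher pair, replicates 1 and 2, and a lower set of 3. No WD1 cKO library reached the higher pair, and the WD1 cKO values lay around and above the lower set. Acvr2b was at 7.76, 9.26, 9.08, 8.61 and 7.08 CPM in Control and 8.97, 8.47, 7.85, 9.05 and 8.34 CPM in WD1 cKO, with the WD1 cKO range inside that of Control. Bmpr2, which binds BMPs in the main, was at 341, 354, 315, 369 and 370.4 CPM in Control and 353, 352, 339, 378 and 381 CPM in WD1 cKO. Replicates 4 and 5 were the highest Bmpr2 libraries of both groups, as they were for Fst in Control. The log2 fold changes were -0.030 for Acvr2a (SE 0.069, 95% interval -0.18 to 0.12), 0.028 for Acvr2b (SE 0.084, -0.16 to 0.21) and 0.044 for Bmpr2 (SE 0.051, -0.066 to 0.15).

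The type I receptors carry the signal into the cell, and Acvr1, Bmpr1a and Bmpr1b all act on the BMP branch of SMAD proteins. Acvr1 was at 28.1, 26.5, 29.3, 28.2 and 27.9 CPM in Control and 26.1, 25.1, 26.8, 25.8 and 25.5 CPM in WD1 cKO. The groups overlapped only through Control replicate 2 and WD1 cKO replicate 3, and the other 4 Control libraries lay above every WD1 cKO library. Its log2 fold change was -0.11 (SE 0.041, 95% interval -0.20 to -0.025), the only interval among the 9 that did not hold 0, and its adjusted p was 1.00 in edgeR's quasi-likelihood test over all genes. Bmpr1a was the steadiest of the 10 genes in Control, at 118, 115, 119, 117 and 119 CPM, with 114, 113, 123, 123 and 117 CPM in WD1 cKO. The WD1 cKO libraries lay on both sides of the narrow Control range, and the log2 fold change was 0.0047 (SE 0.032, -0.064 to 0.074), so that this interval spans 0.956 to 1.05 times the Control level. Bmpr1b was at 5.71, 4.41, 4.71, 5.48 and 8.01 CPM in Control and 4.80, 4.79, 5.20, 4.07 and 6.96 CPM in WD1 cKO, on 80 to 241 counts. Replicate 5 was the highest Bmpr1b library of both groups. The log2 fold change of Bmpr1b was -0.12 (SE 0.17, -0.50 to 0.26), and it ranged from -0.26 without WD1 cKO replicate 5 to 0.035 without Control replicate 5.

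**Figure D2:**
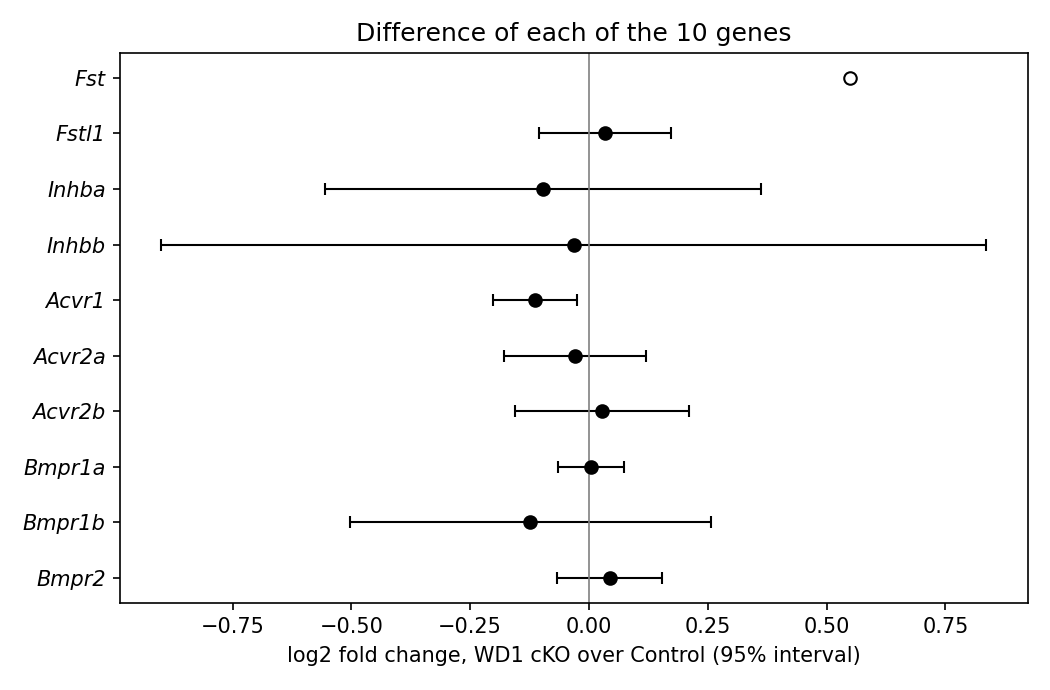
Difference of each of the 10 genes between the groups, as log2 fold change of WD1 cKO over Control (horizontal axis) with its 95% interval (bars); the open point is Fst, which was selected on this difference and is drawn with no interval. The points of the other 9 genes lie between -0.12 and 0.044, and the bar of Inhbb, the gene with the fewest counts, is the widest.

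None of the 9 genes passed either threshold: 0 had an adjusted p under 0.05, against 0.0400% of all genes tested, and 0 passed the cut-off of the study, against 0.206% higher and 0.177% lower. With edgeR 1 of the 9, Acvr1, had an unadjusted p under 0.05 (11.1%, against 4.50% of all genes), and with DESeq2 it was again 1, Acvr1 (against 3.68% of all genes), with 0 at an adjusted p under 0.05 (against 19 genes, 0.109%). The 9 values were split into 4 above and 5 below 0, with a median of -0.030, where the 17490 genes had a median of 2.2e-04. These intervals limit how far the receptor transcripts could have differed, and they do not show that the levels were the same.

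Levels can be set side by side between genes only per length, here as CPM per kb of exon. Fstl1 stood first at 208 CPM per kb over all 10 libraries (186 to 233), 8.37 times the next gene. Acvr2a followed at 24.9 CPM per kb (22.6 to 28.3), then Bmpr2 at 19.8 (17.5 to 21.2) and Bmpr1a at 18.54 (17.8 to 19.4). Bmpr2 and Bmpr1a were not separated, since their ranges over the libraries overlapped. Acvr1 came next at 5.58 CPM per kb (5.20 to 6.07) and Fst at 4.38 CPM per kb (3.08 to 6.08). These neighbours overlapped as well, and in WD1 cKO they were near each other, with Fst at 5.22 ± 0.501 and Acvr1 at 5.36 ± 0.128 CPM per kb, against 3.55 ± 0.438 and 5.80 ± 0.211 in Control (SD, n = 5 each). Acvr2b was at 2.15 CPM per kb and Bmpr1b at 0.908 CPM per kb, and each was apart from its neighbours in the order. Inhba at 0.292 and Inhbb at 0.131 CPM per kb ended the order, with ranges that overlapped. With the longest transcript as the length, Bmpr2 moved above Acvr2a, at 27.5 against 24.9 CPM per kb, and the other places were kept.

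**Figure D3:**
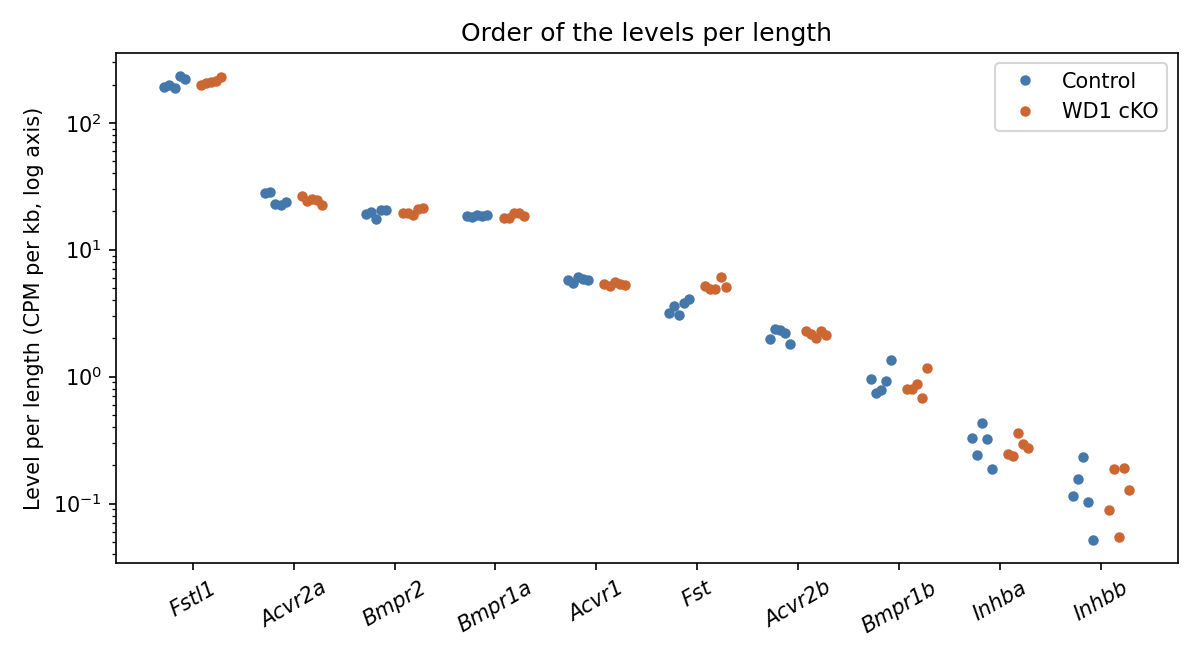
Level per length of the 10 genes in CPM per kb of exon (vertical log axis), in falling order, with each of the 5 Control and 5 WD1 cKO libraries as a point. Fstl1 stands above the receptors, Fst lies beside Acvr1, and the ligand subunits Inhba and Inhbb lie below 0.5 CPM per kb in each library.

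Of each pair of closely related receptors, Acvr2a with Acvr2b and Bmpr1a with Bmpr1b, the first predominated. The ratio of Acvr2a to Acvr2b per length was 11.9 ± 1.78 in Control and 11.3 ± 0.775 in WD1 cKO (SD, n = 5 each). The ratio of Bmpr1a to Bmpr1b was 20.3 ± 4.20 and 22.2 ± 4.45. Both pairs of groups overlapped. The ratio of Fst to the sum of Inhba and Inhbb, an antagonist over the activin subunits it binds, spanned 4.61 to 17.3 among the Control libraries and 11.4 to 15.5 among the WD1 cKO libraries. The Control range rested on replicate 5 at its upper end, and the other 4 Control libraries lay below every WD1 cKO library. The means were 9.41 ± 4.77 and 12.8 ± 1.59 (SD, n = 5 each), and this ratio holds the difference of Fst again. The spread between libraries also differed from gene to gene: in Control the coefficient of variation was 1.21% for Bmpr1a and 3.65% for Acvr1, 12.3% for Fst, 25.0% for Bmpr1b and 51.2% for Inhbb. In WD1 cKO it was 3.95%, 2.39%, 9.60%, 21.0% and 46.1% for the same genes, so that Acvr1 there varied less than Bmpr1a.

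Of 91 further genes of the pathway reported here, listed by role, 72 had enough counts to be tested and 19 did not. In edgeR 0 had an adjusted p under 0.05, and 3 higher and 3 lower had an unadjusted p under 0.05 (8.33% of the 72, against 4.50% of all genes). DESeq2 gave 0, 3 and 3 as well, against 3.68% of all genes at an unadjusted p under 0.05. In both tools the higher genes were Bmp5, Bambi and Id2, and the lower genes Acvr1b, Rgma and Bmper. The median log2 fold change of the 72 genes was 0.012, and 40 lay above 0 and 32 below.

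Of the 19 extracellular antagonists given here 17 were tested, and 9 of these lay above 0 and 8 below, with a median log2 fold change of 0.031. Sostdc1, an antagonist of BMP and Wnt ligands, was the most abundant of them at 117 ± 7.09 CPM in Control and 124 ± 8.10 CPM in WD1 cKO. Chrdl1, a chordin-like BMP antagonist, had the largest absolute log2 fold change over all libraries, -0.40 (SE 0.34, 95% interval -1.13 to 0.33). The value of Chrdl1 rested on single libraries, as it was -0.16 when Control replicate 5 was left out and -0.59 when WD1 cKO replicate 5 was.

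Of 30 further ligand genes 17 were tested and 0 passed either threshold, with a median log2 fold change of 0.051. Bmp1, a protease that was first isolated with the BMPs and processes procollagen and chordin, was the most abundant at 85.9 ± 6.54 CPM in Control and 89.0 ± 4.04 CPM in WD1 cKO. Mstn (myostatin), which follistatin also binds, had the largest absolute log2 fold change of the list over all libraries, 0.34 (SE 0.18, 95% interval -0.059 to 0.75), at 1.79 ± 0.518 and 2.26 ± 0.195 CPM, and it ranged from 0.21 to 0.46 without 1 library. Inha and Gdf11, chosen after their values were seen, stood well above the beta subunits per length. Inha, the alpha subunit that turns an activin beta subunit into an inhibin, was at 20.5 ± 1.67 CPM per kb in Control and 19.2 ± 0.310 in WD1 cKO, and Gdf11, another ligand that follistatin binds, at 16.4 ± 0.782 and 16.1 ± 1.06 CPM per kb (SD, n = 5 each). Their log2 fold changes were -0.092 (95% interval -0.21 to 0.025) and -0.030 (-0.14 to 0.077).

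Of 13 further receptors and co-receptors 11 were tested and 0 passed either threshold. With edgeR 2 of the 11, both lower in WD1 cKO, had an unadjusted p under 0.05 (18.2%, against 4.50% of all genes). Rgmb, a BMP co-receptor that was first found in DRG, was the most abundant at 237 ± 13.1 CPM in Control and 232 ± 8.59 CPM in WD1 cKO. Hjv, the co-receptor of iron regulation, had the largest absolute log2 fold change over all libraries, -0.28, with a 95% interval of -0.94 to 0.37 at under 1.1 CPM in each library. The value of Hjv ranged from -0.50 without WD1 cKO replicate 2 to -0.13 without WD1 cKO replicate 5.

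The 15 SMAD genes and regulators were all tested and 0 passed, with a median log2 fold change of 0.015. Fkbp1a, whose product holds type I receptors in their inactive state, was the most abundant at 388 ± 9.80 CPM in Control and 386 ± 11.1 CPM in WD1 cKO. Smad6, an inhibitor of BMP signalling that BMPs themselves induce, had the largest absolute log2 fold change, 0.27 (SE 0.14, 95% interval -0.025 to 0.57).

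Of 14 target genes of the pathway 12 were tested and 0 passed either threshold, with 6 above and 6 below 0 and a median of 0.0073. Id2, which encodes an inhibitor of helix-loop-helix factors that BMPs induce, had the largest log2 fold change, 0.19 (SE 0.066, 95% interval 0.041 to 0.33, adjusted p of 1.00 in edgeR). Its level was 43.7, 42.6, 38.8, 41.4 and 44.5 CPM in Control and 40.4, 47.9, 52.3, 47.9 and 51.2 CPM in WD1 cKO. All WD1 cKO libraries other than replicate 1 lay above every Control library, and without WD1 cKO replicate 1 Id2 passed the cut-off of the study with a log2 fold change of 0.24. Calca, the CGRP gene, was the most abundant at 319 ± 70.5 CPM in Control and 316 ± 58.6 CPM in WD1 cKO, a log2 fold change of -0.013 (SE 0.15, 95% interval -0.35 to 0.32).

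**Figure D4:**
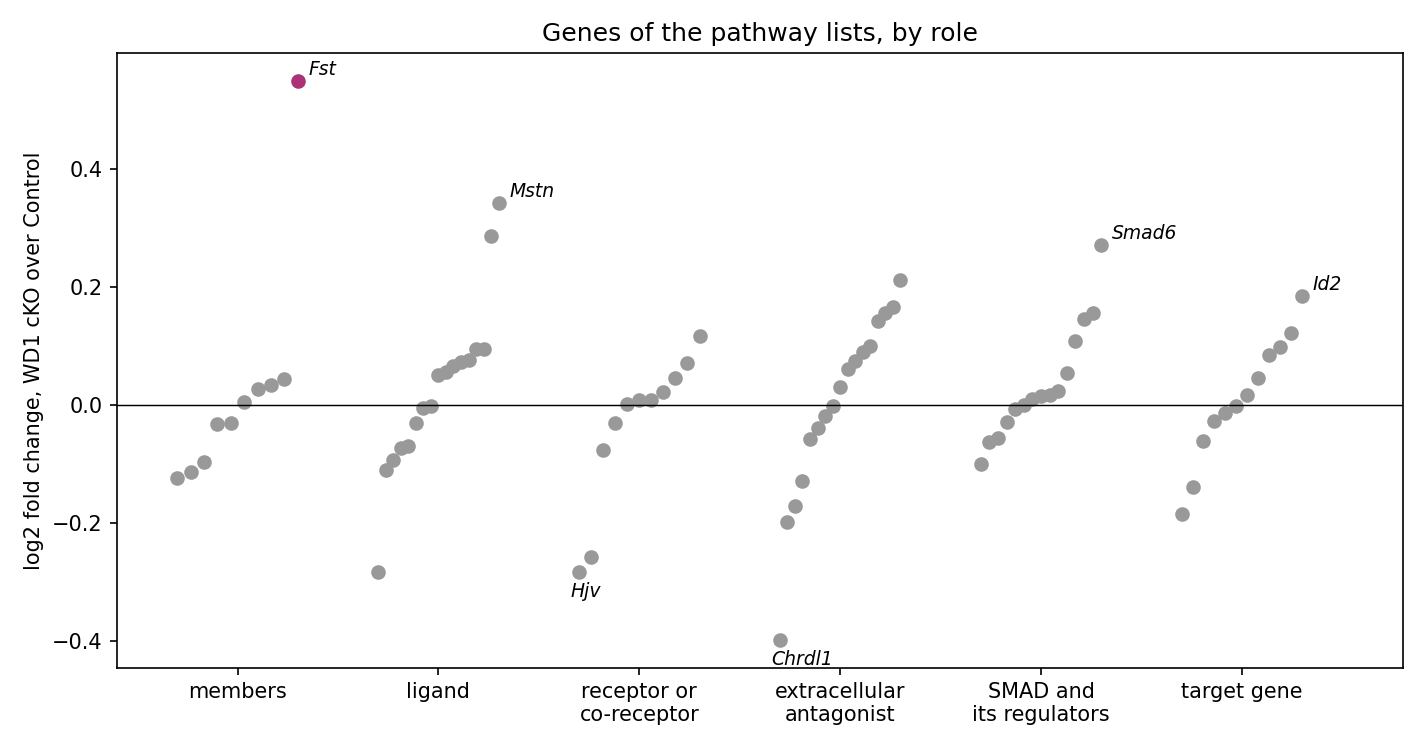
Log2 fold change of WD1 cKO over Control (vertical axis) for the 10 genes and for the tested genes reported from the 5 pathway lists, ordered by value within each list; the coloured point is Fst and grey points are the other genes. Fst lies at 0.55, the value it was selected on, and each list has points on both sides of 0.

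The 5 genes whose levels followed Fst most closely were sought among the 12749 genes whose mean count reached 100, by Pearson's r of log2 CPM over the 10 libraries after the mean of each group was subtracted. They were Glt1d1 (r = 0.98, Spearman's rho = 0.94), Tmx3 (r = 0.95), Ndufaf2 (r = 0.94), Zfp40 (r = 0.94) and Scfd2 (r = 0.94). Within a library all genes share its depth and tissue makeup, which differed between libraries, so these values describe 10 libraries and say nothing of function. They are also the highest of 12749 values from 10 libraries, which can be high through selection alone, and they were not tested. None of the 5 had the difference of Fst between the groups: their log2 fold changes ran from 0.018 for Glt1d1 to 0.11 for Ndufaf2, a complex I assembly factor that lies on chromosome 13 as Fst does. By the same measure Bmpr2 (r = 0.82) and Fstl1 (r = 0.69) were the nearest of the 9 other genes and Inhba (r = -0.57) the farthest.

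Marker lists of the cell types that a dissected ganglion can hold were read beside Fst. The 10 sensory neuron genes, led by Prph at 2182 CPM, summed to 8068 to 9064 CPM in Control and 8346 to 9241 CPM in WD1 cKO, so the defining genes of the labelled tissue were present. The 8 connective tissue genes, led by Col3a1 at 1829.7 CPM, all had log2 fold changes above 0, with a median of 0.13, and 0 of 8 passed the cut-off. Their sums were 4979, 4796, 6274, 4559.9 and 4824 CPM in the Control libraries and 5277, 5825, 5923, 5416 and 5135 CPM in the WD1 cKO libraries. The groups overlapped through Control replicate 3 alone, which had the highest sum, and the other 4 Control libraries lay below every WD1 cKO library, as they did for Fst. The 8 Schwann and satellite glia genes, led by Mbp at 226 CPM, gave 7 log2 fold changes above 0 with a median of 0.080, and sums of 1005 to 1176 CPM in Control and 982 to 1268 CPM in WD1 cKO.

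Skeletal muscle, a known source of follistatin, was present in trace. Its 8 genes, led by Acta1 at 31.3 CPM, summed to 125, 60.8, 116, 28.2 and 198 CPM in the Control libraries and 61.0, 62.0, 109.6, 68.6 and 51.6 CPM in the WD1 cKO libraries, and 6 of the 7 tested had log2 fold changes below 0. Their median log2 fold change was -0.51, 0 passed the cut-off, and the sums of the groups overlapped. The 6 blood genes, led by Hbb-bs at 448 CPM, separated the libraries by number, with sums of 1074 to 2471 CPM in Control 1 to 3 and 510.0 to 1137 CPM in WD1 cKO 1 to 3, against 155 to 183 CPM in Control 4 and 5 and 189 to 243 CPM in WD1 cKO 4 and 5. The labels name no batch for these numbers. Blood RNA was lower on average in WD1 cKO: 5 of the 6 genes had log2 fold changes below 0, with a median of -0.94, and 0 passed the cut-off. In libraries 4 and 5, by contrast, the WD1 cKO sums were the higher. Fst was at 14.1 to 16.5 CPM in Control and 22.3 to 23.7 CPM in WD1 cKO in libraries 1 to 3, and at 17.5 to 18.9 and 23.4 to 27.9 CPM in libraries 4 and 5. The direction within each set is fixed by the choice of Fst and is no sign of stability.

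The remaining lists gave sums that overlapped between the groups. They were 109.7 to 126 and 98.1 to 129.7 CPM for 6 cartilage genes (most abundant Col2a1), 230.2 to 277 and 223 to 272 CPM for 5 endothelial genes (Cdh5), 134 to 189 and 153 to 178 CPM for 5 mural genes (Pdgfrb), and 43.3 to 48.9 and 42.9 to 51.6 CPM for 5 macrophage genes (Csf1r), Control first. The 6 spinal cord genes (Slc6a5) were near 0, at 0.110 to 0.528 CPM in the other Control libraries and 0.0842 to 1.16 CPM in WD1 cKO, but reached 12.5 CPM in Control replicate 3. Without that library the log2 fold change of Fst was 0.50. No marker gene of these lists was at 0 in all libraries. The part of these cell types in the difference of Fst was not tested.

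**Figure D5:**
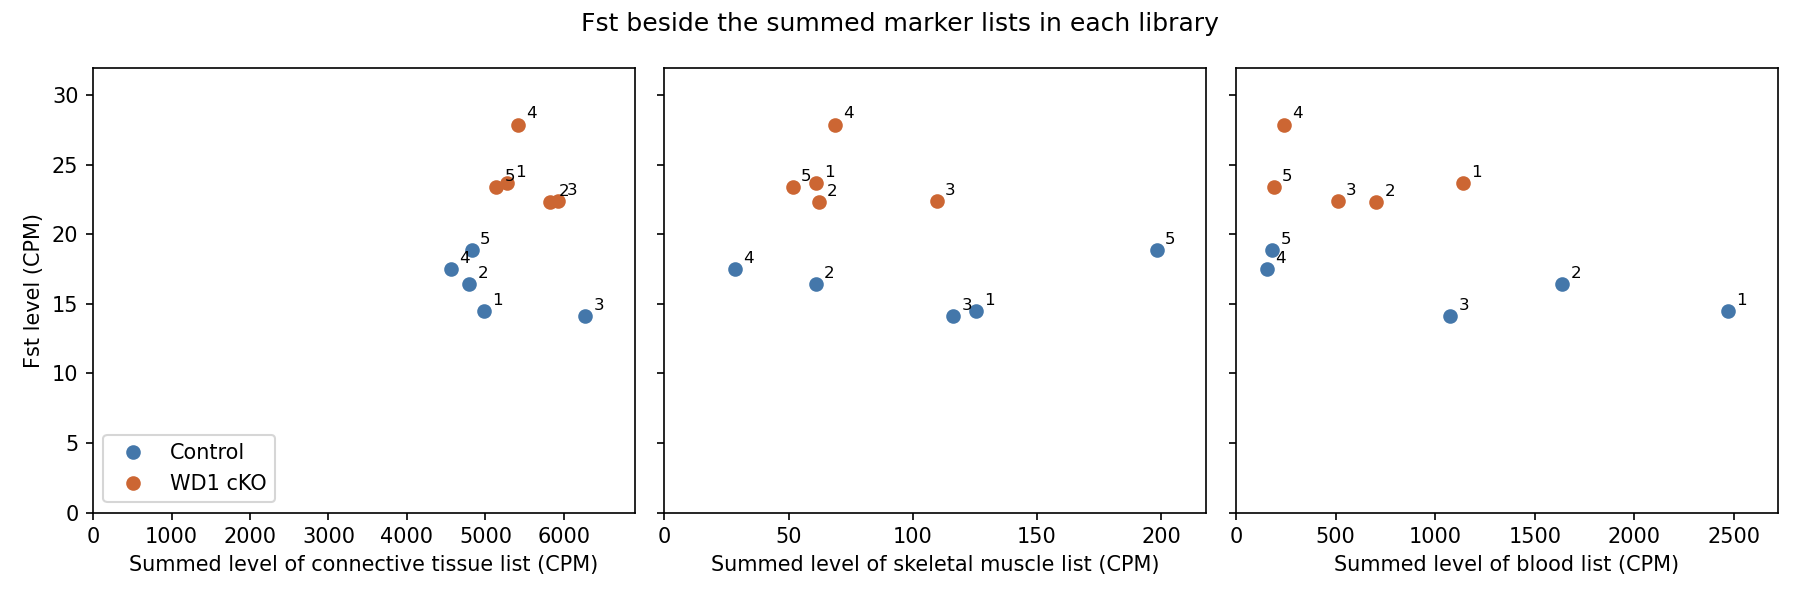
Level of Fst in CPM (vertical axis) beside the summed level in CPM of the connective tissue, skeletal muscle and blood marker lists (horizontal axes) in each Control and WD1 cKO library; numbers are replicates. On the vertical axis all WD1 cKO points lie above all Control points, and blood RNA sets libraries 1 to 3 apart from 4 and 5.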

How the data were processed

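The deposited values are counts of reads per gene, 1 file per library, which the authors made from reads of a stranded mRNA kit with bcl2fastq 2.20.0.422, STAR 2.7.8a and featureCounts 2.0.1 on GRCm39. The strand setting of the counting is not given in the sources used here, so reads of overlapping antisense genes cannot be told apart. Symbols came from a gene name table and exon lengths from GENCODE annotation of the earlier build, matched by Ensembl identifier. The members and gene lists were chosen with earlier results of these data known. From the pathway lists 1 gene is not reported here, and it enters no count, median or plot of these lists. The 17490 genes that reached 10 counts in 5 or more libraries were fitted with edgeR 4.0.16 in R 4.3.3 (TMM scaling, quasi-likelihood test, Benjamini-Hochberg adjustment), with group as the only term. Intervals are 95% intervals from that fit, and CPM use the TMM library sizes. DESeq2 1.42.0, its size factors, no filter, the replicate number as a block, Xist as a covariate and the omission of each library were the alternatives. Both tools were tested on simulated counts, with 100 genes changed by a log2 of 0.5 and 100 by 1. At an adjusted p under 0.05 edgeR recovered 81 and 98 of these, with 10 false calls. DESeq2 recovered 85 and 99, with 35 false calls, so its calls were the less strict. No library was counted as a duplicate, since counts of libraries of 1 group differed beyond counting error (a chi-square of 4.35 or more per degree of freedom for each pair). Named genes were the 10 members, Dach1 and the 5 genes nearest to Fst. From each pathway list they were the most abundant gene, the gene with the largest absolute log2 fold change and any gene past a threshold. From each marker list the most abundant gene was named. Inha, Gdf11 and the other pathway genes named for an unadjusted p under 0.05 were added after their values were seen. Each library is a separate sample by its title, and the study describes the groups as embryos.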

Additional observations from a re-analysis of the deposited data

Results flagged for a closer look

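In 2 of 40 groups of 5 libraries, 1 library stood apart from the rest beyond Dixon's 95% critical value. Chance gives about 1 in 20, or 2 groups. The groups were those of 20 genes in both genotypes. These genes were the members and, from each pathway list, the most abundant gene and the gene with the largest absolute log2 fold change. Fst was at 27.9 CPM in WD1 cKO replicate 4, above 22.3 to 23.7 CPM in the other 4 libraries. Fkbp1a was at 371 CPM in Control replicate 2, below 390 to 396 CPM in the others.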

How the results depend on the processing

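The log2 fold change of Fst lay between 0.49 and 0.61 over 17 alternatives, a direction that was fixed by its choice. Libraries 1 to 3 alone gave 0.60 and libraries 4 and 5 alone 0.49; both splits were chosen after seeing the data. Of the other 9 genes 0 reached an adjusted p under 0.05 in any alternative, and 7 changed sign in at least 1, all with intervals that held 0. Inhbb, at -0.032 over all libraries, was at 0.94 in libraries 4 and 5 alone and at -0.23 to 0.26 without 1 library. It was not tested in libraries 1 to 3 alone. The 7 genes with an adjusted p under 0.05 became 19 with DESeq2, 4 with Xist as a covariate, 3 in libraries 1 to 3, 3 in libraries 4 and 5, and 3 to 6 without 1 library. The 36 higher and 31 lower genes became 66 and 62 without the filter, which admits more genes, 70 and 72 in libraries 4 and 5, and 24 to 55 and 27 to 41 without 1 library. The count of 0 further ligand, receptor, SMAD and target genes past the cut-off was 0 to 1 without 1 library (Id2 without WD1 cKO replicate 1) and 0 in the other alternatives. The cause of these shifts was not tested. Same-numbered libraries deviated together with correlations of 0.32 to 0.39 for 4 numbers and 0.042 for number 2, and 7 of 10 libraries correlated best with their own number. Since number 2 fell short of a correlation of 0.1, the block was kept as an alternative, and the intervals given above do not use it. The labels name no litters, and whether same-numbered libraries share one was not tested. With edgeR 787 genes had an unadjusted p under 0.05 without the block and 1241 with it. With the replicate number as a block, 8 genes had an adjusted p under 0.05, 65 were higher and 68 lower by the cut-off, and the log2 fold change of Fst was 0.55. The adjusted p of Fst fell under 0.05 with this block, as with DESeq2's Wald test and with no filter, and not in the other alternatives; it is a description, since Fst was selected on this contrast. Among the 10 genes, Inhba and Inhbb had the fewest counts, and Inhbb the widest interval.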
